A study of Homo sapiens with 32 samples.

Results

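Ribosome biogenesis is the work of making ribosomes: RNA polymerase I transcribes the ribosomal RNA precursor in the nucleolus, guide RNA particles modify it, and assembly factors cut, fold and export the small and large subunits. Its genes are known to be expressed at high levels in growing and cancer cells, and many of them are known targets of MYC, a transcription factor that binds DNA together with its partner MAX. The genes described here are a list of 55 such genes, taken by name and by no threshold on a value, but with earlier results of these data known. Of these, 54 were found in the count files of both cell lines, and BOP1 was not analysed here. The HCT116 files hold 57820 genes in all and the HEK293 files 11887. By role, the 54 genes were 5 of RNA polymerase I transcription and its nucleolar cofactors, 2 abundant nucleolar proteins, 4 of the box C/D particles, 4 of the box H/ACA particles, 17 of small-subunit assembly, 21 of large-subunit assembly and 1 subunit of the RNA exosome.

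The study asked what happens to transcription when distal regulatory elements are deleted, and 26 of its 32 samples are RNA libraries. All were clonal populations that had received Cas9-GFP, had been sorted for GFP and had been expanded from single cells. Control clones had received an empty guide vector, and deletion clones guides against the elements named E7, 18qE or 18qNE. HCT116 is a colorectal cancer line and HEK293 an embryonic kidney line. In HCT116, 4 control clones gave 12 libraries, 1 from each clone on RNA extraction days A, B and C. A single E7 clone gave 3 libraries on the same days, so every E7 value in HCT116 describes that clone. The 3 18qNE clones gave 1 library each, on days A, B and A. Day D held 1 library each of control clones 1 and 2 and of 18qE clones 1 and 2. HEK293 had 2 control clones and 2 E7 libraries, all of day E, and both E7 libraries carry the label of the same clone although their titles number them 1 and 2.

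The 18 libraries of the first 3 extraction days held 9871667 to 14862268 gene counts each. Those of day D held 22972412 to 24887785, and the HEK293 libraries 26491576 to 34790193. No pair of libraries in a group agreed within sampling noise (the closest, control clones 1 and 2 on day B, had a chi-square of 2.37 per gene), so all were counted separately. HCT116 expressed the epithelial markers EPCAM, CDH1, ELF3, KRT8, KRT18 and KRT19. Of the intestinal markers, CDX2 was at 14.9 to 26.4 CPM (the usual depth-scaled read count, taken over all reads assigned to genes). The intestinal markers CDX1, VIL1 and LGALS4 stayed below 1 CPM. HEK293 had VIM at 709 to 831 CPM. Of the other listed HEK293 markers, the HEK293 controls had SOX11 at 355 and 104 CPM, DPYSL3 at 120 and 118 CPM and GATA3 at 24.65 and 29.8 CPM. ENO2, at 43.7 and 44.5 CPM, lay within the range of the HCT116 controls (19.0 to 54.85 CPM), and NEFM stayed below 1 CPM. PAX2 was not in the HEK293 files, and it was at 7.75 to 15.8 CPM in HCT116. The 8 leukocyte markers summed to at most 4.92 CPM in any HCT116 control library. The HEK293 controls stood apart from each other, with MYC at 67.4 CPM in clone 1 and 156 CPM in clone 2, and day A stood apart from days B and C in the control clones. Results that rest on either are also given without them.

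Promoter windows of the members are shown first, because many of them hold the letters CACGTG, the E-box that MYC and MAX are known to bind. The windows come from RefSeq (GRCh38.p14) and run from 250 bases before a gene's start to 50 after it. Of the 54 genes, 45 had at least 1 window, 55 windows in all. The motif reads the same on both strands, so a match counts for both, and no other motif was searched. It was present in 22 of the 45 genes (48.9%) and in 23 of the 55 windows (41.8%), against 7.26% of all 35116 windows in the table and 12.1% of the genes tested in HCT116 that had a window. Among 104 other ribosome biogenesis genes with a window, 28.8% held it. The windows below, with the motif in capitals and 12 bases on each side where the window allows, are those of genes named in the results that follow: 6 that fell in the E7 clone of HCT116, NOP2, which rose there, and MRTO4, which had the largest day change. They were picked among the windows with the motif. In the E7 clone, 6 of the 22 genes with the motif fell and 4 of the 23 with a window but no motif, with medians of -0.22 and -0.11. TCOF1 and NOLC1, which fell most, are not among the 45 genes with a window.
FBL, chr19:39846356-39846385, minus strand, motif 6 bases after the start: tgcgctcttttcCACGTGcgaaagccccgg
RRP9, chr3:51941892-51941921, minus strand, motif 5 bases before the start: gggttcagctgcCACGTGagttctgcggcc
PES1, chr22:30591880-30591909, minus strand, motif 13 bases after the start: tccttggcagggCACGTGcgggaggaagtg
GNL3, chr3:52686026-52686055, plus strand, motif 6 bases after the start: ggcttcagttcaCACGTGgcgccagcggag
WDR43, chr2:28894658-28894687, plus strand, motif 3 bases after the start: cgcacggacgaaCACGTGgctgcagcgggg
UTP4, chr16:69132621-69132650, plus strand, motif 16 bases before the start: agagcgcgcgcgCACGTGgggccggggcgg
NOP2, chr12:6568242-6568268, minus strand, motif 35 bases after the start: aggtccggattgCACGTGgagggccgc
MRTO4, chr1:19251807-19251836, plus strand, motif 14 bases after the start: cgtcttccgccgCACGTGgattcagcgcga

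The motif lay close to the start in most of these genes. Of its 25 matches in member windows, 20 (80%) began between 20 bases before the start and the window's end, with a median of 6 bases after the start. In all windows of the table that share was 20% of 2821 matches, and in the other ribosome biogenesis genes 54.3% of 35. The limit of 20 bases was chosen after the positions were seen. The windows of UTP20 and FBL hold the motif within 10 bases of the start, while EBNA1BP2 has 1 match 237 bases before a start and another 42 bases after a second annotated start.

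**Figure D1:**
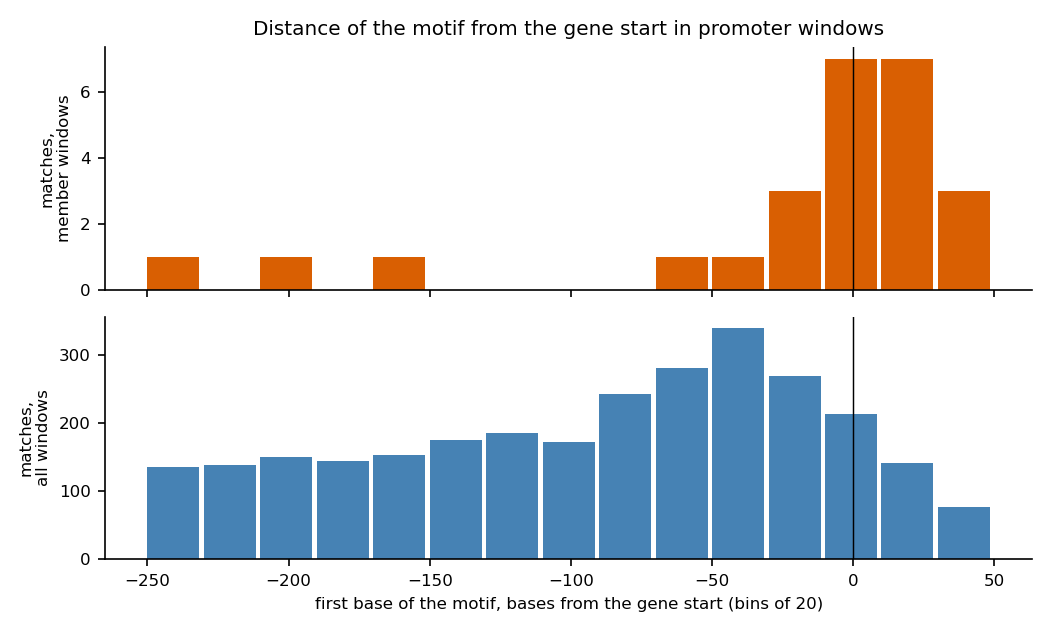
Number of CACGTG matches (vertical axis) by the distance of the motif's first base from the gene start (horizontal axis, bases, bins of 20) in the windows of the members (upper panel, 25 matches) and in all windows of the table (lower panel, 2821 matches). Member matches gather around and just after the start (20 of 25 from 20 bases before it). Matches in all windows occur over the whole window and are most frequent just before the start (340 in the bin from -50, 135 in the bin from -250). In the range that holds most member matches they number 20%.

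The level of the whole list is given as the mean over the 54 genes of log2(CPM + 1), computed over the genes listed in both kinds of file so that the lines share a scale. In the control clones of HCT116 this mean was 7.16, 6.87, 6.92 and 7.09 on day A for clones 1 to 4. On day B it was 7.48, 7.46, 7.56 and 7.40, and on day C 7.42, 7.38, 7.36 and 7.32. All day A libraries were thus below all day B and C libraries. The E7 clone had 6.86, 7.14 and 7.23 on days A, B and C, below all 4 control clones of the same day each time. The 18qNE clones had 6.81 and 7.2 on day A (clones 1 and 3) and 7.53 on day B (clone 2), the first below and the second above the 4 controls of that day. On day D the controls had 7.41 and 7.50 and the 18qE clones 7.69 and 7.25, so the controls lay between the 18qE clones. In HEK293 the controls had 6.75 and 7.14 and the E7 libraries 6.78 and 6.69, which overlap.

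MYC followed another order. It was at 387 to 482 CPM in the 12 control libraries of days A to C (420 ± 30.6, SD, n = 12 libraries of 4 clones). In the E7 clone it was at 177, 162 and 216 CPM on days A, B and C, below every control library. The 18qNE clones had 449, 507 and 418 CPM, and on day D the controls had 467.5 and 504 CPM and the 18qE clones 557 and 378 CPM. In HEK293 the E7 libraries had 23.3 and 24.5 CPM, below both controls. The list mean and MYC were thus both low in the E7 clone of HCT116, whereas between days the list mean differed while MYC averaged 426 ± 42.4 CPM on day A, 427 ± 26.7 on day B and 406 ± 23.5 on day C (SD, n = 4 clones). No correlation is given, because libraries of a clone and of a day are not independent.

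**Figure D2:**
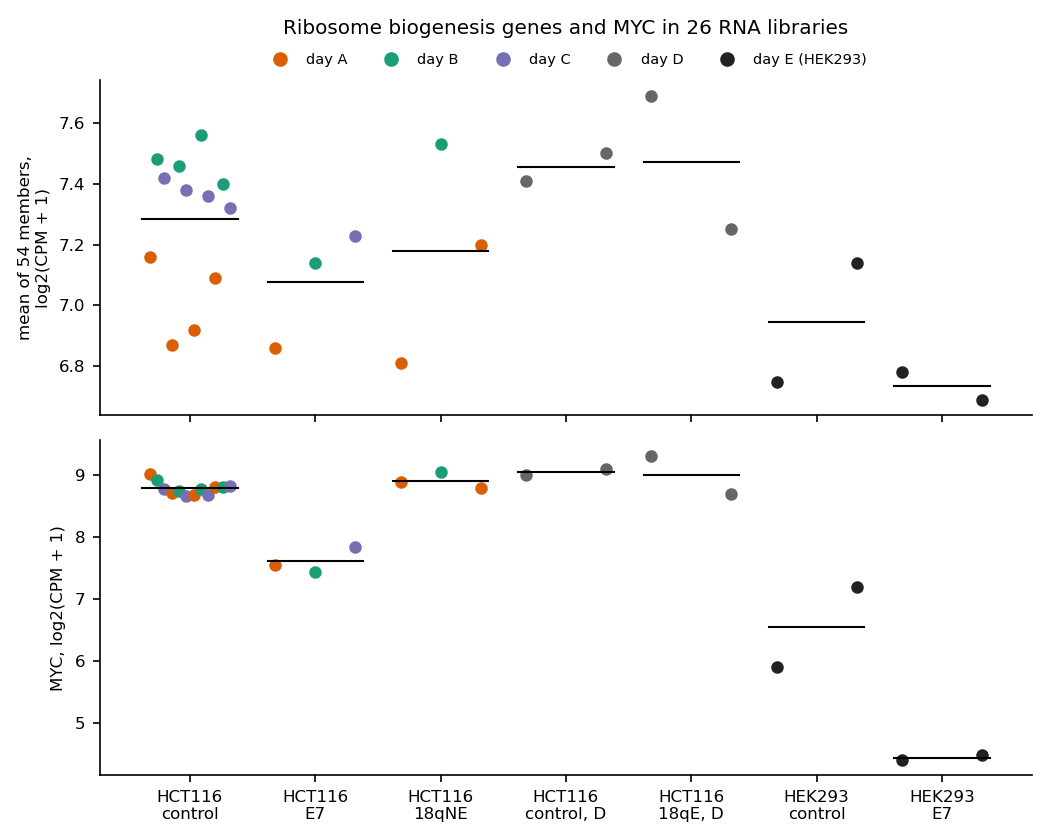
Mean log2(CPM + 1) of the 54 ribosome biogenesis genes (upper panel) and log2(CPM + 1) of MYC (lower panel) in each of the 26 libraries, by group, with points coloured by extraction day and lines at the group means. The control libraries of day A (6.87 to 7.16) sit below those of days B and C in the upper panel but not in the lower, and the E7 libraries of HCT116 are the lowest of that line for MYC.

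The first comparison asked what the loss of E7 changed in HCT116, with the 3 libraries of each clone summed. In the E7 clone 15 of the 54 genes fell and 1 rose. TCOF1 and NOLC1, a pair of related nucleolar proteins tied to RNA polymerase I transcription and to the guide RNA particles, fell most. The background was 7.58% of 17664 genes called higher and 6.32% called lower (edgeR's quasi-likelihood test, Benjamini-Hochberg adjusted p below 0.05). The median log2 change was -0.19 over the members and -0.01 over all genes tested, and 49 of the 54 were negative. The member median was -0.09 without the E7 library of day A and -0.29 without that of day C. On the list of 113 other ribosome biogenesis genes, 16 fell and 3 rose, with a median of -0.16. MYC fell by 1.19 on the log2 scale (SE 0.11, adjusted p = 0.000733). In bulk RNA of a clone, fewer cells with a transcript and less of it per cell cannot be told apart.

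TCOF1 (ENSG00000070814.13), the treacle protein that recruits the RNA polymerase I machinery to ribosomal DNA, was at 123, 159.5 and 172 CPM in the E7 clone on days A, B and C. The 12 control libraries ran from 214 through a median of 327 to 377 CPM, so every E7 library was below every control library. The log2 change was -1.0 (SE 0.08, adjusted p = 0.000496). NOLC1 (ENSG00000166197.12), a chaperone of the guide RNA particles, was at 326, 403 and 463 CPM in the E7 clone. In the controls it ran from 496.5 through 714.5 to 774 CPM, again without overlap, and its log2 change was -0.76 (SE 0.08, adjusted p = 0.00133). POLR1B, a core subunit of RNA polymerase I, fell by 0.35 (SE 0.08, adjusted p = 0.031). The other polymerase subunits in the list did not pass the test: POLR1C had -0.30 and POLR1A, the largest subunit, -0.06 with an SE of 0.21.

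In the box C/D particles, which guide ribose methylation of ribosomal RNA, FBL and RRP9 fell. FBL, the methyltransferase fibrillarin, was at 182.5, 217 and 203 CPM in the E7 clone, and at 238, 271 and 365 CPM as lowest, median and highest control library. Its groups did not overlap, and the log2 change was -0.50 (SE 0.11, adjusted p = 0.0259). Without control clone 1 or control clone 2, FBL no longer passed the test (adjusted p = 0.0513 and 0.0594). RRP9 had a log2 change of -0.46 (SE 0.08, adjusted p = 0.0116), while NOP56 and NOP58, the scaffold proteins of the same particles, had -0.19 and -0.01 and did not pass. None of the 4 box H/ACA genes, whose particles guide pseudouridylation, passed the test, and their log2 changes ran from -0.32 for GAR1 to 0.03 for the pseudouridine synthase DKC1. Of the abundant nucleolar proteins, nucleolin (NCL) fell by 0.28, and nucleophosmin (NPM1), which has processed gene copies that can take up or lose reads, had -0.17 and did not pass.

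In small-subunit assembly, 3 of 17 genes fell: DCAF13 (-0.71), WDR43 (-0.30) and UTP4 (-0.29), all components of the early processing complex on the precursor. The median of the 17 was -0.15. In large-subunit assembly, 5 of 21 fell and 1 rose, with a median of -0.19. Those that fell were WDR74 (-0.48), RRP1B (-0.47), NOP16 (-0.41), PES1 (-0.36) and GNL3 (-0.33). PES1 is the pescadillo protein that works with WDR12 and BOP1, and WDR12 itself had a log2 change of -0.00. GNL3 is nucleostemin, a nucleolar GTPase. RRP1, the near relative of RRP1B, had -0.34 with an adjusted p of 0.0837. EXOSC4, a core subunit of the exosome that trims RNA ends, fell by 0.75 (SE 0.13, adjusted p = 0.00996).

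**Figure D3:**
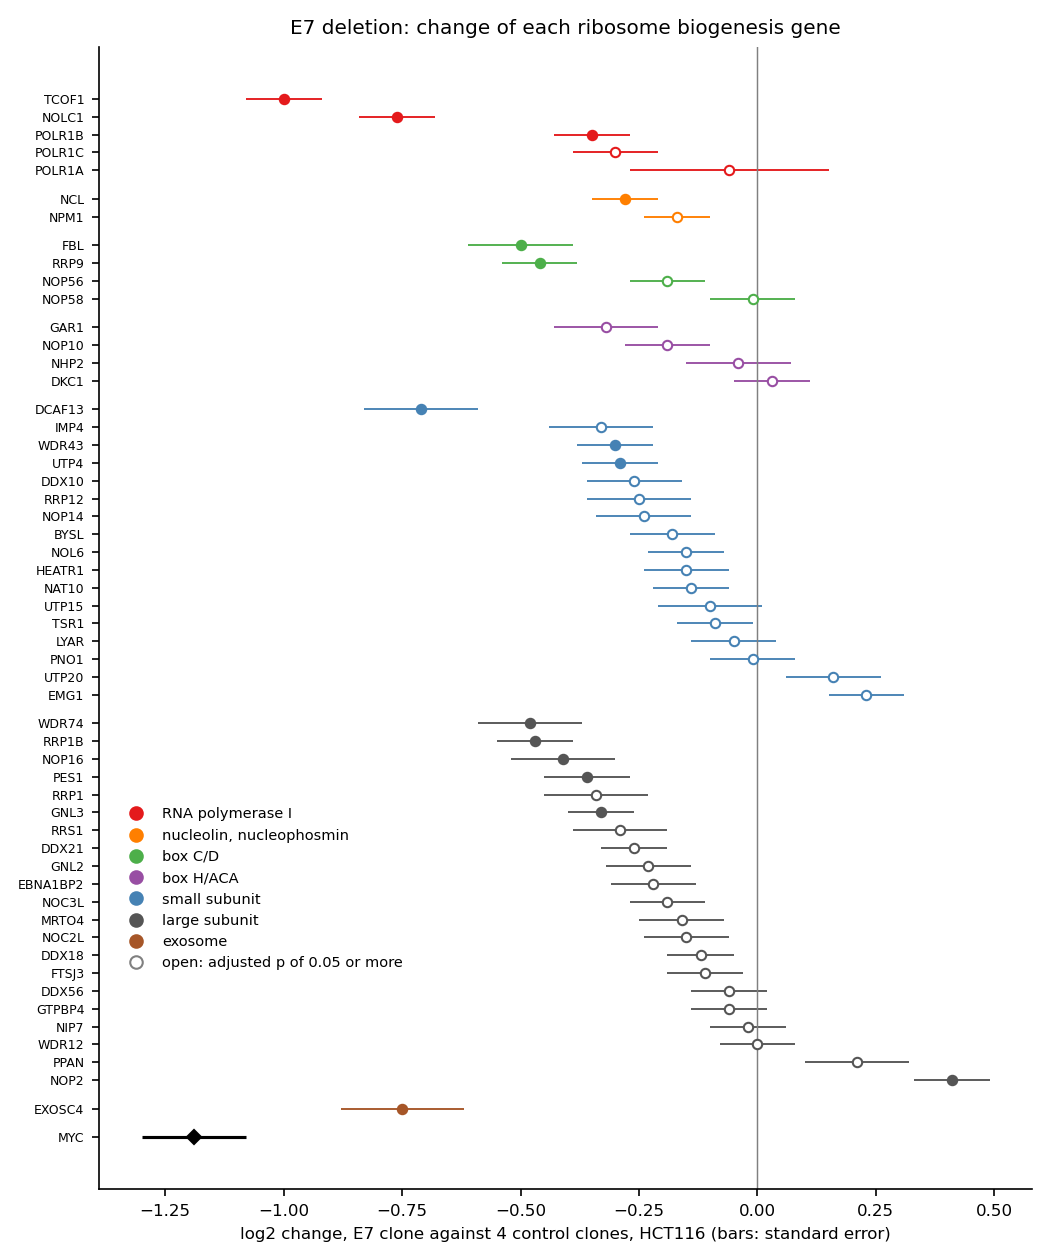
Log2 change of each of the 54 genes and of MYC between the E7 clone and the 4 control clones of HCT116 (horizontal axis, with standard errors), grouped and coloured by role. Filled points passed the test: 15 genes lie to the left, led by TCOF1 at -1.0, and NOP2 lies to the right at 0.41.

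Some of these genes lie in stretches of chromosomes where most neighbours moved together in the E7 clone, as known from an earlier analysis of these data. On chromosome 8, from CPNE3 to C8orf33, 124 of 243 tested genes fell and 3 rose, with a median of -0.58. DCAF13 and EXOSC4 lie in this stretch, and so does MYC itself. On chromosome 12, from KDM5A to AMN1, 115 of 212 rose and 2 fell, with a median of 0.58. NOP2, an RNA cytosine methyltransferase of large-subunit assembly, and EMG1, a pseudouridine methyltransferase of small-subunit assembly, lie there. DCAF13 was at 89.5, 105 and 113 CPM in the E7 clone and at 122, 176 and 201 CPM as lowest, median and highest control library, without overlap. EXOSC4 was at 22.5, 27.6 and 30.55 CPM against 31.9, 46.5 and 62.15 CPM, also without overlap. NOP2 was at 180.1, 237 and 247 CPM against 118, 173 and 199 CPM, and its day A value fell within the control range (log2 change 0.41, SE 0.08, adjusted p = 0.0142). EMG1 had 0.23 and did not pass (adjusted p = 0.109). Without the E7 library of day A it had 0.40 and passed (adjusted p = 0.0175), and without that of day C it had 0.11. Of the 50 members outside these stretches, 13 fell and none rose, with a median of -0.19. The part of a changed copy number in these values was not tested.

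Over all libraries, 5 of the 54 genes had every E7 value below every control value (DCAF13, EXOSC4, FBL, NOLC1 and TCOF1), against a background of 6.6% of genes, and 0 had every E7 value above, against 7.5%. With each E7 library set against the 4 control libraries of its own day, which is a looser rule, it was below all 4 for 26 members on day A (background 26.3%), 48 on day B (28.2%) and 34 on day C (33.5%). On all 3 days this held for 23 genes (background 13.3%). NOP2 and PPAN were above all 4 controls on each day (background 14%), though PPAN overlaps a read-through transcript and its counts are uncertain. The mean level of the list, on the scale of all HCT116 genes, was lower in the E7 clone by 0.18, 0.34 and 0.13 on days A, B and C, where the control clones had SDs of 0.15, 0.07 and 0.03. Mitochondrial RNA took 4.64% to 5.19% of gene counts in the E7 clone, where the controls had 5.48% to 7.12%. Of the 9 listed markers of HEK293, 7 were in the HCT116 files, with SOX11 and NEFM at 0 in all HCT116 libraries. Their sum was 137 to 207 CPM in the E7 clone and 103.5 to 157 CPM in the controls, and single genes moved both ways. VIM was at 18.1 to 26.0 CPM in the E7 clone against 0.155 to 1.61 CPM, ENO2 at 105 to 161 CPM against 19.0 to 54.85 CPM, and DPYSL3 at 4.64 to 6.80 CPM against 69.3 to 89.4 CPM. The 10 colorectal epithelial markers summed to 4288 to 5813 CPM against 3937 to 6489 CPM. The part of mitochondrial RNA and of these markers in the result was not tested.

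The count of 16 called members moved with the libraries used. It was 8 (7 fell) without control clone 1 and 9 (8 fell) without control clone 2, where 3.64% and 3.56% of all genes were called lower. It was 9 (7 fell) without the E7 library of day A, where 7.02% of all genes were called lower, and 14 (13 fell) without day A in both groups, where 4.97% were. With single libraries and the extraction day as a block it was 26, of which 25 fell, but there 17.6% of all genes were called lower. In the 7 fits that each left out 1 control clone or 1 E7 library, TCOF1, NOLC1, EXOSC4, DCAF13, RRP1B, RRP9 and NOP2 passed every time. The other 9 lost the call in at least 1: besides FBL, WDR74 without the E7 library of day A (-0.36, adjusted p = 0.067), and NOP16, PES1, POLR1B, GNL3, WDR43, UTP4 and NCL without that library and without control clone 1, with highest adjusted p-values of 0.0685 for GNL3 to 0.185 for UTP4. Set against the 18qNE clones as reference, with the E7 libraries of days A and B only, 0 of the 54 passed and 79 genes did in all. The member median was -0.22, TCOF1 had -1.03 (adjusted p = 0.333) and MYC -1.43 (adjusted p = 0.0727). The 18qNE clones gave 1 library each, of days A, B and A, and day was not a term. The spread of this reference thus includes the day difference, and the SE of TCOF1 was 0.32 in place of 0.08.

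In HEK293, which has its own E7 libraries, none of the 54 genes passed the test. The background was 0.00847% of 11806 genes called higher and 0.0169% called lower, and 3 members had an unadjusted p under 0.05. DESeq2 called 1 member, NIP7, where it called 3.92% of all genes. The member median was -0.25 against -0.01 for all genes, and 41 of 54 changes were negative. The lowest were EXOSC4 at -1.12 (SE 0.54), NIP7 at -0.83 (SE 0.18) and FBL at -0.81 (SE 0.43). The highest were HEATR1 at 0.48, UTP20 at 0.38 and POLR1A at 0.33, the first pair being large scaffold proteins of the early small-subunit complex. MYC had -2.31 (SE 0.45, adjusted p = 0.222). It passed with DESeq2 (-2.30, adjusted p = 5.18e-06). When any 1 of the 4 libraries was left out, MYC had -2.82 to -1.52 with edgeR. Those fits leave 1 library in a group, so their spread rests on the other group alone.

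The HEK293 values turned on which control clone was used. FBL was at 468 CPM in control clone 1 and 1067 CPM in clone 2, and at 463 and 466 CPM in the E7 libraries. EXOSC4 was at 21.5 and 62.9 CPM in the controls and at 18.6 and 22.8 CPM in the E7 libraries. HEATR1 went the other way, with 307 and 179 CPM in the controls and 394 and 309.7 CPM in the E7 libraries. For all 3 genes the E7 libraries were thus nearer to control clone 1 than to clone 2. NIP7 (ENSG00000132603.9), a large-subunit assembly factor, was alike in both control clones, at 88.4 and 93.8 CPM, and lower in the E7 libraries, at 53.7 and 53.7 CPM. With the E7 libraries, which carry the label of 1 clone, summed, NIP7 kept a change of -0.83 (SE 0.53, adjusted p = 0.999) and no member passed. Without control clone 1, 38 members passed the test (35 fell and 3 rose, median -0.43), and without control clone 2, 4 did (3 fell and 1 rose, median -0.02), where 26.3% and 9.24% of all genes were called lower and 26.2% and 6.94% higher. These counts assume that the lone control varies like the E7 libraries, which may come from 1 clone.

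In all, 18 members had both E7 libraries below both controls and 5 had both above, where 20.9% and 28.7% of all genes did. The lower group included NIP7, FBL, NCL, NPM1 and NOLC1, and the higher group was HEATR1, NOL6, POLR1A, TSR1 and UTP20. The 5 listed epithelial markers found in these files summed to 447 to 731 CPM in the controls and to 1018 to 1163 CPM in the E7 libraries. EPCAM, KRT8, KRT18 and KRT19 were higher in both E7 libraries than in both controls, with KRT8 at 377 and 220 CPM in the controls and 498 and 567 CPM in the E7 libraries, while CDX2 went from 12.6 and 22.8 to 6.81 and 6.43 CPM. The 6 listed HEK293 markers found summed to 1112 to 1252 CPM in the controls and 1059 to 1121 CPM in the E7 libraries. Among them SOX11 went from 355 and 104 to 1.29 and 0.764 CPM and NEFM from 0.632 and 0.680 to 35.8 and 28.7 CPM. The part of these markers in the result was not tested.

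Whether the change with E7 differed between the lines was tested by the interaction of line and deletion. That fit counted the 2 HEK293 E7 libraries, labelled as 1 clone, as 2 units, and the interaction with them summed was not tested. It also took 1 spread per gene over both lines, although the HEK293 controls stood further apart than the HCT116 control clones. Of all 11849 genes tested, 1.45% had a higher change in HEK293 than in HCT116 and 1.93% a lower change. Among the members this held for TCOF1 in the first direction and for NIP7 in the second. TCOF1, lower in the E7 clone of HCT116, was at 317 and 357 CPM in the HEK293 controls and 327 and 315 CPM in the HEK293 E7 libraries, so that the groups overlapped. The difference between the changes was 0.88 (SE 0.17, adjusted p = 0.0385). NIP7 was at 80.3, 105 and 121 CPM in the E7 clone of HCT116 and at 64.7, 111.5 and 131 CPM as lowest, median and highest HCT116 control. Its difference was -0.80 (SE 0.15, adjusted p = 0.0354). With the shared spread, the SEs of both differences were below those of the HEK293 changes alone (0.20 for TCOF1 and 0.18 for NIP7). Both adjusted p-values may thus be too low.

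Both calls had adjusted p-values of 0.0734 to 0.107 when any HCT116 control clone was left out and of 0.124 to 0.155 without either HEK293 E7 library. The differences themselves stayed at 0.76 to 1.01 for TCOF1 and -0.88 to -0.71 for NIP7 over all left-out libraries. NOLC1 had a difference of 0.52 (adjusted p = 0.126), MYC one of -1.10 (adjusted p = 0.272), and the median over the members was -0.03. Without HEK293 control clone 1, MYC passed with -1.61 (adjusted p = 0.000163) and the member median was -0.26. Without control clone 2, MYC had -0.31 (adjusted p = 0.155) and the median was 0.20. In these fits 25 and 9 members passed, where 39.7% and 17.6% of all genes did, again with the spread taken from what remained.

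**Figure D4:**
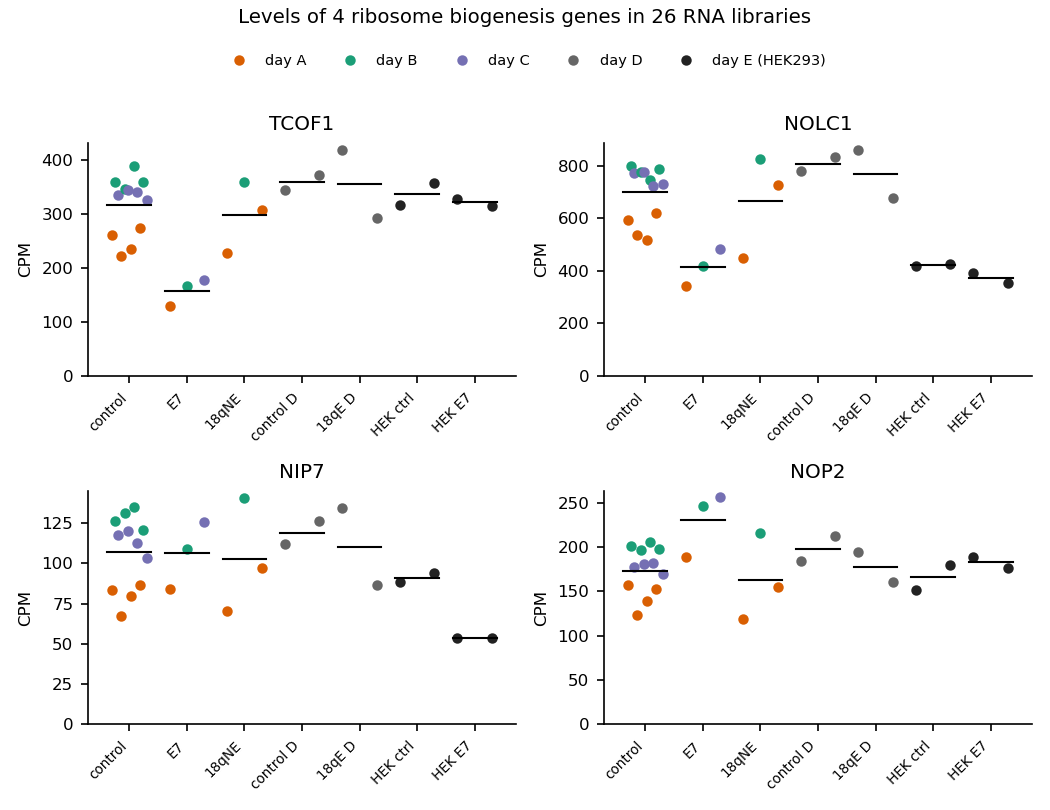
CPM over the genes listed in both kinds of file for TCOF1, NOLC1, NIP7 and NOP2 in each of the 26 libraries, by group, coloured by extraction day, with lines at the group means and axes from 0. TCOF1 is low in the 3 E7 libraries of HCT116 (129 to 178) but not in those of HEK293 (315 and 327), and NIP7 is low in those of HEK293 (53.7 and 53.7) but not in HCT116 (84.0 to 125.5).

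Deletion of 18qNE and of 18qE in HCT116 gave no called member. For 18qNE, 0% of 15524 genes were called higher and 0% lower by edgeR (505 had an unadjusted p under 0.05, and DESeq2 called 13), and the member median was -0.01. The extremes were EXOSC4 at -0.30, FBL at -0.18 and EBNA1BP2, a large-subunit factor, at -0.15, and DDX21, an RNA helicase, at 0.11, UTP20 at 0.11 and POLR1A at 0.17. MYC had 0.13 (SE 0.11). The 3 clones differed among themselves. NCL was at 1343, 2300 and 1959 CPM and NOLC1 at 429.7, 799 and 702 CPM in clones 1 to 3, of days A, B and A. On day A the controls had 1464 to 1802 CPM of NCL and 496.5 to 596 CPM of NOLC1, so clone 1 was below and clone 3 above them. The mean of the list, on the scale of all HCT116 genes, was set against the controls of the same day. It differed by -0.18 in clone 1 and 0.21 in clone 3 on day A (SD of the controls 0.15). In clone 2 on day B it differed by 0.06 (SD 0.07).

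For 18qE, 0% of 15261 genes were called higher and 0% lower (391 with an unadjusted p under 0.05, and 19 by DESeq2). The member median was 0.03, and MYC had -0.01 (SE 0.22). The highest were DDX21 at 0.32, DDX18, another helicase of large-subunit assembly, at 0.30 and UTP4 at 0.18, and the lowest NHP2 at -0.16, NOP2 at -0.12 and RRP12 at -0.12. Here too the clones stood on either side of the controls. TCOF1 was at 405 and 282 CPM in 18qE clones 1 and 2 and at 334 and 362 CPM in the controls, and 36 of the 54 members had clone 1 above and clone 2 below both controls, as did 8.07% of all genes tested.

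The extraction day went with the widest shift of the list. Between days A and B, 50 of the 54 genes rose in the control clones and 0 fell, with all assembly factors of both subunits among those that rose. The background was 18.9% of 14441 genes called higher and 20.6% called lower. The median was 0.51 over the members and -0.02 over all genes. Of the 113 other ribosome biogenesis genes, 91 rose and 1 fell, RIOK3. MYC had 0.05 (SE 0.06, adjusted p = 0.587). With upper-quartile factors in place of TMM, which shifted the median of all genes to -0.08, 48 members rose and 0 fell, and the split of all called genes went from 2731 higher and 2969 lower to 2002 higher and 3633 lower.

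MRTO4, a large-subunit factor related to the stalk protein it precedes, was at 139, 93.5, 97.8 and 116 CPM on day A in control clones 1 to 4. On day B it was at 193, 181, 204.5 and 171 CPM, and on day C at 169, 175, 157 and 161 CPM. Each clone was lowest on day A, and the log2 change from A to B was 0.80 (SE 0.10, adjusted p = 9.73e-05). EMG1 was at 70.3, 50.8, 50.5 and 56.7 CPM on day A, at 87.3, 93.9, 109 and 86.9 CPM on day B and at 83.0, 87.4, 95.9 and 95.3 CPM on day C, again without overlap with day A. Its log2 change from A to B was 0.77 (SE 0.11). NIP7 averaged 76.2 ± 8.13, 124 ± 6.18 and 109.8 ± 7.31 CPM on days A, B and C (SD, n = 4 clones), and rose by 0.75 from A to B. RRP1, a large-subunit factor, averaged 62.2 ± 11.4, 101 ± 9.43 and 86.6 ± 7.18 CPM and rose by 0.75. LYAR, a nucleolar zinc-finger protein, averaged 83.5 ± 8.82, 135 ± 13.1 and 119.9 ± 5.14 CPM and rose by 0.74. FTSJ3, a ribosomal RNA methyltransferase, averaged 128 ± 15.7, 203 ± 17.3 and 179.5 ± 3.98 CPM and rose by 0.71. EBNA1BP2 (0.70) and RRS1 (0.69), both of large-subunit assembly, had the next largest changes.

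The 4 genes that did not pass between A and B were NHP2 at -0.04, NOP10 at 0.16, FBL at 0.23 and POLR1A at 0.24. NHP2 and NOP10 are small proteins of the box H/ACA particles, whose other members GAR1 and DKC1 rose by 0.52 and 0.48. NHP2 averaged 80.2 ± 6.845, 76.2 ± 9.48 and 70.7 ± 4.335 CPM on days A, B and C. By role, the medians from A to B were 0.56 for large-subunit and 0.54 for small-subunit assembly, 0.53 for box C/D, 0.45 for RNA polymerase I, 0.34 for the abundant proteins and 0.32 for box H/ACA.

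Day C differed from day A in a like way, and the 2 comparisons share the day A libraries. Again 50 members rose and 0 fell, against 15.7% of all genes called higher and 17.3% called lower, with medians of 0.40 and -0.02. EMG1 (0.70), UTP20 (0.67), UTP15 (0.66), MRTO4 (0.62), RRP1B (0.58), NIP7 (0.56), LYAR (0.56) and NOL6 (0.55) had the largest changes, and MYC had -0.03 (SE 0.06). The genes that did not pass were NHP2, FBL, NOP10 and NPM1. Without control clone 2 the count was 24 (0 fell, median 0.32), where 5.76% of all genes were called higher, and upper-quartile factors gave 43, with 1550 genes called higher and 3263 lower in place of 2261 and 2505. Between days B and C no member passed, where 0.00692% of all genes were called higher and 0.0277% lower. In that comparison 11 members had an unadjusted p under 0.05, DESeq2 called 0, and the extremes were NOP56 at -0.28, GAR1 at -0.27 and FBL at -0.25, and RRP1B at 0.06, POLR1B at 0.09 and HEATR1 at 0.14. MYC had -0.08. Without the libraries of day A, 6 members fell from B to C, where 1.79% of all genes did.

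The E7 clone, whose libraries enter neither day comparison, moved in the same direction. Its CPM was higher on day B than on day A for 52 of the 54 genes, against 43% of all genes, the exceptions being HEATR1 and POLR1A. It was higher on day C than on day A for 53 of 54, against 41.3%, the exception being NOP10. With 1 library a day these directions have no test. Differences in the mean of the list are given here on the scale of all HCT116 genes. From day A to day B it was higher by 0.34, 0.64, 0.67 and 0.35 in control clones 1 to 4 and by 0.33 in the E7 clone. Control clone 1 on day D was 0.29 above its day A value and 0.05 below its day B value. Control clone 2 was 0.71 above and 0.08 above. The sources used here do not say what differed between the extraction days. Mitochondrial RNA made up 6.16% to 7.12% of gene counts in the control libraries of day A and 5.48% to 5.99% on days B and C, and reads aligned at several places 13.3% to 13.8% and 12.3% to 13%. Their part in the result was not tested.

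**Figure D5:**
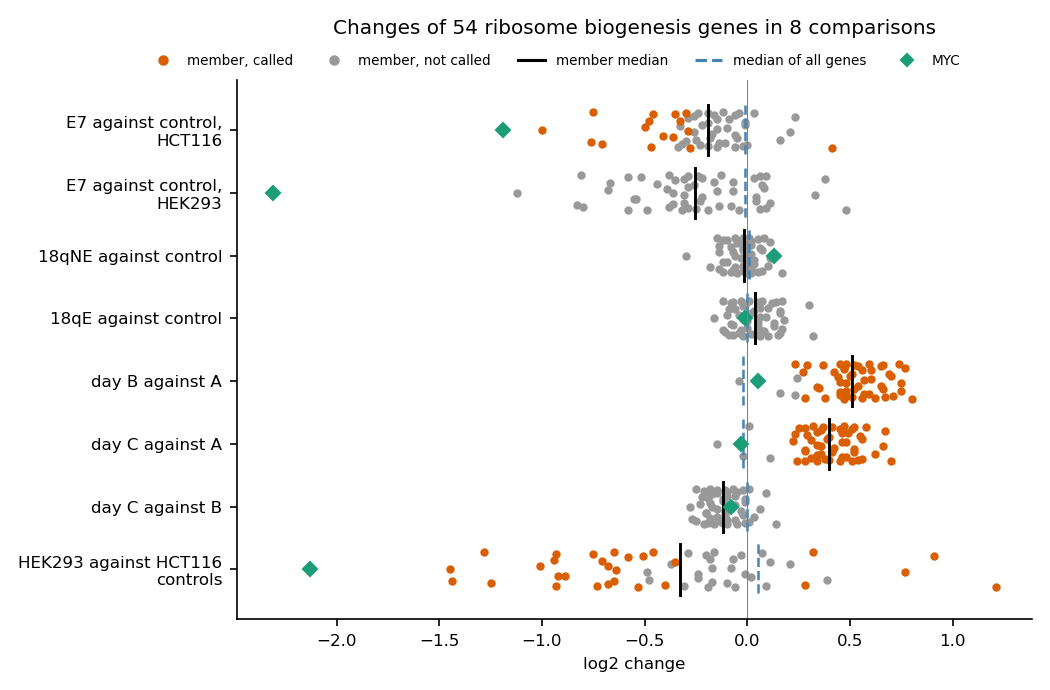
Log2 change (horizontal axis) of the 54 ribosome biogenesis genes in 8 comparisons, with called genes in orange, others in grey, the member median as a black line, the median of all genes tested as a dashed blue line and MYC as a green diamond. The members lie right of the all-gene median between day A and days B or C (medians 0.51 and 0.40) with MYC near 0, and left of it with E7 in HCT116 (-0.19), where MYC lies at -1.19.

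Among the control clones, POLR1A was the member that differed. Over the 12 libraries with day as a term, 7.89% of 14685 genes differed among the 4 clones, and 1 of the 54 members did (adjusted p = 0.01). POLR1A was at 126.5, 116 and 142 CPM in clone 3 on days A to C. It was at 149.6, 220.2 and 211 CPM in clone 1, at 160.3, 212 and 219 CPM in clone 2 and at 202, 199 and 186.5 CPM in clone 4. Clone 3 was thus the lowest on every day. POLR1A was not called without clone 3, nor without the libraries of day B or of day C, and without those of day A 5 members were, where 11.7% of all genes were. MYC did not pass (adjusted p = 0.238), with clone sums of 457, 399, 393 and 435 CPM.

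The last comparison set the HEK293 controls against the HCT116 controls. Line and extraction day cannot be told apart here. Of the 54 members, 24 were lower and 5 higher in HEK293, where 26% of 11805 genes were lower and 31.1% higher. The median was -0.33 over the members and 0.05 over all genes, and MYC was lower by 2.13 (SE 0.35, adjusted p = 0.00172). Small-subunit assembly had 11 of 17 genes lower and 1 higher (median -0.64), and large-subunit assembly 6 of 21 lower and 2 higher (median -0.20).

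WDR74 and RRP9 differed most in the lower direction. WDR74, a large-subunit factor, was at 22.6 and 36.8 CPM in HEK293 and at 50.02 to 91.5 CPM in the 12 HCT116 controls on the scale of the genes in both kinds of file, a log2 difference of -1.45 (SE 0.22). RRP9 was at 30.1 and 46.7 CPM against 63.7 to 119 CPM (-1.44, SE 0.20), and NAT10, an RNA cytidine acetyltransferase, at 78.8 and 91.4 CPM against 155 to 206.5 CPM (-1.25, SE 0.12). The others among the 8 lowest were DCAF13 (-1.28), DDX10 (-1.01), EMG1 (-0.94), NOP16 (-0.93) and LYAR (-0.93). Without HEK293 control clone 1, EMG1, NOP16 and LYAR had -0.61, -0.52 and -0.59, and without clone 2 NOP16 had -1.48. Among these 8, picked as the lowest, the HEK293 control libraries lay below all 12 HCT116 libraries for WDR74, RRP9, DCAF13, NAT10 and DDX10. Those of EMG1, NOP16 and LYAR overlapped. The share of all genes that separate in this way was not counted, while 26% of all genes were called lower. Higher in HEK293 were FBL at 468 and 1067 CPM against 247 to 376 CPM (1.21, SE 0.30), RRP1 at 133 and 228 CPM against 55.5 to 118 CPM (0.91, SE 0.22), NHP2 (0.77), BYSL (0.32) and RRP1B (0.28). Without HEK293 control clone 2, FBL, RRP1 and NHP2 had 0.43, 0.41 and 0.28. BYSL and RRP1B lost the call without any 1 HCT116 control clone, and NHP2 without clone 2 or 4. With the day D control libraries of HCT116 in place of those of days A to C, 17 members were lower and 0 higher, where 14% and 19.9% of all genes were. With upper-quartile factors, which moved the median of all genes from 0.05 to 0.17, 19 were lower and 5 higher, against 21.2% and 35.7% of all genes. Without HEK293 control clone 1 or 2, 36 (27 lower) and 44 (38 lower) passed, where 35.5% and 34.4% of all genes were lower and 37.7% and 36.9% higher. On CPM without TMM factors the mean of the list differed by -0.18 in place of -0.34, against an SD of 0.05 between the HCT116 clones.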

How the data were processed

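Gene expression was measured by RNA sequencing in 26 libraries. The authors deposited raw read counts per gene, 1 library per file and not normalized. Per the submitters' processing notes, the build was hg19 and the tools included TopHat2 and HTSeq 0.6.1, with Partek 3 and bedtools also named. The sources used here do not say whether counting used strand, so reads of overlapping genes cannot be told apart. The 5 summary lines of the HCT116 files stayed out of all totals and tests. They held 7.78% to 14.3% of reads outside genes on days A to C and 6.34% to 7.21% on day D. Depth per library is given at the start of the results, and CPM was computed over gene counts alone.

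Counts were tested with edgeR 4.0.16 in R 4.3.3 (two-sided quasi-likelihood test, TMM factors, genes kept by filterByExpr at a minimum count of 10, Benjamini-Hochberg adjustment over all genes tested, threshold 0.05). "Rose", "fell" and "called" mean that this was passed. All 54 members passed the filter in every comparison. In HCT116, libraries were summed per clone for E7 (days A to C) and for the controls of 18qNE (days A and B). Days were compared with clone as a term, clones with day as a term. P-values rest on the spread of these clones, and for E7 in HCT116 that of the 4 control clones alone. The fits were run on simulated counts with known changes and the same spread for every gene. Changes as small as the member medians and the wider spread of the HEK293 controls were not simulated. Levels of the list used log2(CPM + 1). Alternatives were DESeq2 1.42.0, upper-quartile factors, no filter, left-out libraries and blocks. The extraction day pairs the E7 clone with the controls (correlations of deviations from the group means over genes of 0.69, 0.45 and 0.50 on days A, B and C).

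The members, the lists and the stretches on chromosomes 8 and 12 were chosen with earlier results of these data known. Per comparison the text names up to 8 called members a direction by size of change, or the 3 highest and 3 lowest where none was called, MYC in each comparison and the members in those stretches, with library values for up to 6. Other genes were named after their values were seen. No column of the files was left unmapped.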

Additional observations from a re-analysis of the deposited data

Results flagged for a closer look

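TCOF1 and NIP7 differed between the lines in their change with E7. The fit counted the 2 HEK293 E7 libraries, labelled as 1 clone, as 2 units. It took 1 spread over both lines, which gave SEs below those of the HEK293 changes alone. For TCOF1 the change in HEK293 minus that in HCT116 was 0.88, with log2 changes of -0.14 in HEK293 and -1.0 in HCT116. For NIP7 it was -0.80, with -0.83 in HEK293 and -0.02 in HCT116. TCOF1 was below every control library in 3 of 3 E7 libraries of HCT116, as were 6.6% of all genes tested there. NIP7 was below both controls in 2 of 2 E7 libraries of HEK293, as were 20.9% of all genes. Both genes were picked by their change in these same libraries, so this separation adds no support. Of the 113 other ribosome biogenesis genes, NOB1 (-1.29, adjusted p = 0.0254) and TAF1B (0.86, adjusted p = 0.0372) also differed.

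In the sums of the 4 control clones of HCT116, 4 members had 1 clone apart from the other 3, which lay close together. In the edgeR test among these clones only POLR1A passed. MRTO4, POLR1B and NAT10 did not (adjusted p = 0.564, 0.782 and 0.681). POLR1A was at 127 CPM in clone 3, against 191 to 196 CPM. MRTO4 was at 166 CPM in clone 1, against 148 to 151 CPM, POLR1B at 138 CPM in clone 4, against 124.5 to 126.5 CPM, and NAT10 at 164 CPM in clone 4, against 174 to 176 CPM. Chance flags about 1 in 20 such groups, and 35 named genes were examined.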

How the results depend on the processing

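The number of members called with E7 in HCT116 (16) ranged from 8 to 23 when 1 library group was left out, where 8.37% and 14.6% of all genes were called. It was 0 with the 18qNE clones, of days A, B and A, as reference (0.521% of all genes). There the E7 libraries were those of days A and B, and day was not a term. With libraries and the day as a replicate block the number of members called was 26 (34.8% of all genes). In HEK293 (0) it ranged from 0 to 38 over left-out libraries and was 1 with DESeq2. The interaction (2) gave 0 to 25 over left-out libraries and 4 with DESeq2. Day C against A (50) ranged from 24 to 48 without 1 control clone. Day C against B (0) gave 1 without a filter and 6 without the libraries of day A. The difference among clones (1) gave 5, 0 and 0 without the libraries of days A, B and C, and 0 to 1 without 1 clone. HEK293 against HCT116 controls (29) gave 17 with day D controls and 22 to 44 without 1 clone. Counts for day B against A, 18qNE and 18qE stayed within 1.5 times of the main count under all alternatives run. The causes were not tested.

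Some uncalled values changed sign when 1 library was left out. For 18qNE these were EBNA1BP2 (-0.39 to 0.05), DDX21 (-0.14 to 0.27) and UTP20 (-0.14 to 0.33). For 18qE they were NOP2 (-0.32 to 0.05), RRP12 (-0.54 to 0.20), UTP4 (-0.05 to 0.38), DDX21 (-0.02 to 0.59) and MYC (-0.38 to 0.28). MYC from day A to C ranged from -0.06 to 0.02, and from A to B it was -0.01 with upper-quartile factors. Of all 751 alternative values for named genes and list means, 675 kept their direction and side of the threshold.

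Replicate numbers in HEK293, 18qE and 18qNE were also used as a block. The replicate block called 0 members for 18qNE and 18qE, so no call on a member changed there. In HEK293 it called 1 member and 5.68% of all genes. The member was NIP7 at -0.83 with an adjusted p of 0.0475, and MYC had -2.17 (adjusted p = 1.17e-06). That block counts the E7 libraries, labelled as 1 clone, as 2, and with them summed NIP7 had an adjusted p of 0.999. Same-numbered HEK293 libraries had deviations from their group means correlated at 0.36 over genes, and 18qE libraries at 0.08. For 18qNE, with the control library of the same number and day, the values were 0.26, 0.64 and 0.13. In HEK293 and 18qE the labels give the samples only a number in common. The number of clones, 1 for E7 in HCT116 and 2 a group for 18qE and HEK293, limits precision. What depth adds was not tested.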
